A study of Mus musculus with 17 samples.

Results

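The 10 genes described here are genes that T cells transcribe, and they were followed in perigonadal white adipose tissue (pWAT), a visceral fat pad that lies beside the gonads. They are *Cd3e*, *Cd3d*, *Cd3g* and *Cd247*, which encode signalling chains of the T cell receptor complex, the kinase gene *Lck*, the coreceptor genes *Cd4*, *Cd8a* and *Cd8b1*, and the regulatory T cell genes *Foxp3* and *Il1rl1*. The 10 were given as a list of names and found by Ensembl identifier among the 55401 gene identifiers measured. RNA-seq was run on whole pWAT with a library per mouse. The females were 5 WT and 5 U9-KO mice and the males 3 WT and 4 U9-KO mice, all C57BL/6J. U9-KO mice are homozygous for a germline deletion of every exon of the lncRNA gene *U90926*, so that the deletion is in every cell type. WT mice were littermates from crosses of heterozygous parents, all 4 groups ate standard chow, and the methods give 16 weeks as the age at collection. The question was whether T cell RNA in pWAT, and the balance of its CD4, CD8 and regulatory parts, differed between U9-KO and WT mice of the same sex.

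A T cell recognizes antigen with its receptor, and the CD3 chains and CD247 (the zeta chain) pass the signal into the cell, where the kinase LCK starts the phosphorylation cascade. The CD4 coreceptor marks helper and regulatory T cells, and the CD8 coreceptor, a pair of the chains encoded by *Cd8a* and *Cd8b1*, marks cytotoxic T cells. Visceral fat of lean mice is known for a resident population of regulatory T cells that use the transcription factor FOXP3 and carry ST2, the IL-33 receptor encoded by *Il1rl1*. Several of these genes are not exclusive to T cells, since mast cells and group 2 innate lymphoid cells also make ST2, NK cells also use CD247 and LCK, and some myeloid cells carry CD4.

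Values are normalized counts, which are reads per gene scaled by library size factors and then rounded. This scaling appeared to have been done within each sex, so the sexes were not tested against each other in level. Rebuilt from the whole numbers that occur, the factors ran from an estimated 0.757 to 1.23, the values summed to 20243688 to 28620744 normalized counts per library, and 3 reads were worth 2.44 to 3.96 normalized counts. *U90926* itself had 1 normalized count in 2 WT mice and 0 in the other 15, so at this depth it did not separate the genotypes. WT female 4 and U9-KO female 1 held the most RNA of a 13-gene ovary list (127130 and 139982 summed normalized counts, against 4625 to 38348 in the other 8 females), and results that rest on them are also given without them.

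The CD3 genes sit together on chromosome 9 of GRCm38. *Cd3g* and *Cd3d* are read in opposite directions from starts 1355 bp apart, and *Cd3e* ends 11401 bp beyond the end of *Cd3d*. On chromosome 6, *Cd8a* starts 35933 bp after *Cd8b1* ends. The 250 bases before the RefSeq start (GRCm38.p6) are shown for the 3 linked CD3 genes, because they are set beside each other below, for *Cd8a*, because it differed most in females, and for both starts of *Il1rl1*, because its RNA varied apart from that of the others. Sequences run 5′ to 3′ on the strand of the gene. Capitals mark the E protein motif (CAGGTG or, on the other strand, CACCTG) in the first 4 and the GATA motif (GATAAG or CTTATC) in the *Il1rl1* windows, and a window with no capitals holds no match to the motif marked.
*Cd3g*, chr9:44980432-44980681, minus strand: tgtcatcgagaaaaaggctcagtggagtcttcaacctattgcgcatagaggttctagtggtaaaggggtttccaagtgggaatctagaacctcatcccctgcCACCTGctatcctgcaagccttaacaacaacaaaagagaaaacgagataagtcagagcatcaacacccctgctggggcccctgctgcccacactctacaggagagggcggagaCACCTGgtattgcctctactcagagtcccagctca
*Cd3d*, chr9:44981536-44981785, plus strand: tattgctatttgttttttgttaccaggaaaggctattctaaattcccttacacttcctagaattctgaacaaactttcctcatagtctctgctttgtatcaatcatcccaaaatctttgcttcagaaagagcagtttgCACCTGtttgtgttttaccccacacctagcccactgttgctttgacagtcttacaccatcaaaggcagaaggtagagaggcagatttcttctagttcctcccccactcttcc
*Cd3e*, chr9:45009612-45009861, minus strand: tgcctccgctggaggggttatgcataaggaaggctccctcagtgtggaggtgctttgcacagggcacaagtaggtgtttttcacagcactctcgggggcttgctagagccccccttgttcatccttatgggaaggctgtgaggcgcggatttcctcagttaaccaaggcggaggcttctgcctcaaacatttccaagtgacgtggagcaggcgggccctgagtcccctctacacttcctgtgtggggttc
*Cd8a*, chr6:71373177-71373426, plus strand: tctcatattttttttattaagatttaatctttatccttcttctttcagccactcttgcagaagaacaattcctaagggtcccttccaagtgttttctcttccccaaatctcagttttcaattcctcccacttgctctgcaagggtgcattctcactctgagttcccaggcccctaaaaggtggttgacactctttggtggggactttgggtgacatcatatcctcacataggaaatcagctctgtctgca
*Il1rl1* first start, chr1:40429320-40429569, plus strand: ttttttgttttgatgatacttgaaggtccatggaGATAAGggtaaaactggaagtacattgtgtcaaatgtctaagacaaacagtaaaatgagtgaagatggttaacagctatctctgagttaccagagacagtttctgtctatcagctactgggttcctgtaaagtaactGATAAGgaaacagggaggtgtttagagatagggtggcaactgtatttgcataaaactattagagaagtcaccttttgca
*Il1rl1* second start, chr1:40439379-40439628, plus strand: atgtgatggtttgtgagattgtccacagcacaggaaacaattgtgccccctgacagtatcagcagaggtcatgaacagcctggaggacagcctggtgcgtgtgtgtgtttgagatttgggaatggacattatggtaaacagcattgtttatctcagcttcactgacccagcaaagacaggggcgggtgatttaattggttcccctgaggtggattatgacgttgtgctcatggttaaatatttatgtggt

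The RefSeq table held 11 such windows for 8 of the 10 genes, and *Cd4* and *Cd8b1* had no entry in it. The E protein motif, read by the lymphoid factors E2A and HEB, was in windows of 4 genes, namely *Cd3g*, *Cd3d*, *Cd247* and *Lck*, and in 17.2% of all 32851 windows. The GATA motif was in windows of *Il1rl1* (both matches in the first) and *Cd3g*, and in 6.5% of all windows. The ETS core AGGAAG or CTTCCT was in 6 of the 11 windows against 29.5% of all, and the RUNX motif TGTGGT or ACCACA in 2 of the 11 against 14%. No 2 matches in the windows shared a base. These matches describe the letters and say nothing about binding.

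All 10 genes were measured in both sexes and passed the filter of a total of at least 10. Divided by the exonic length that no other gene shares, mean levels in WT females ran from 36.5 ± 11.2 normalized counts per kb for *Il1rl1* to 1.08 ± 0.58 for *Foxp3* (n = 5, SD). Between them came *Cd247* (22.4), *Lck* (15.4), *Cd4* (11.8), *Cd3g* (7.95), *Cd3d* (6.94), *Cd3e* (5.02), *Cd8b1* (2.97) and *Cd8a* (2.36). Of the 9 neighbouring pairs in that order, the values of the mice overlapped in all but *Cd8a* and *Foxp3*, and in U9-KO females they overlapped in all 9. *Foxp3* was lowest in each of the 4 groups. In males *Cd247* came first, at 70.7 ± 15.3 per kb in WT (n = 3, SD) and 65.5 ± 8.28 in U9-KO mice (n = 4, SD), above *Il1rl1* at 38.3 and 34.2 without overlap. That order rests on the 2116 unshared bases of *Cd247*. Over the 5123 bases that no gene of its own strand shares, *Cd247* was at 29.2 per kb in WT and 27.0 in U9-KO males, below *Il1rl1* in both.

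**Figure D1:**
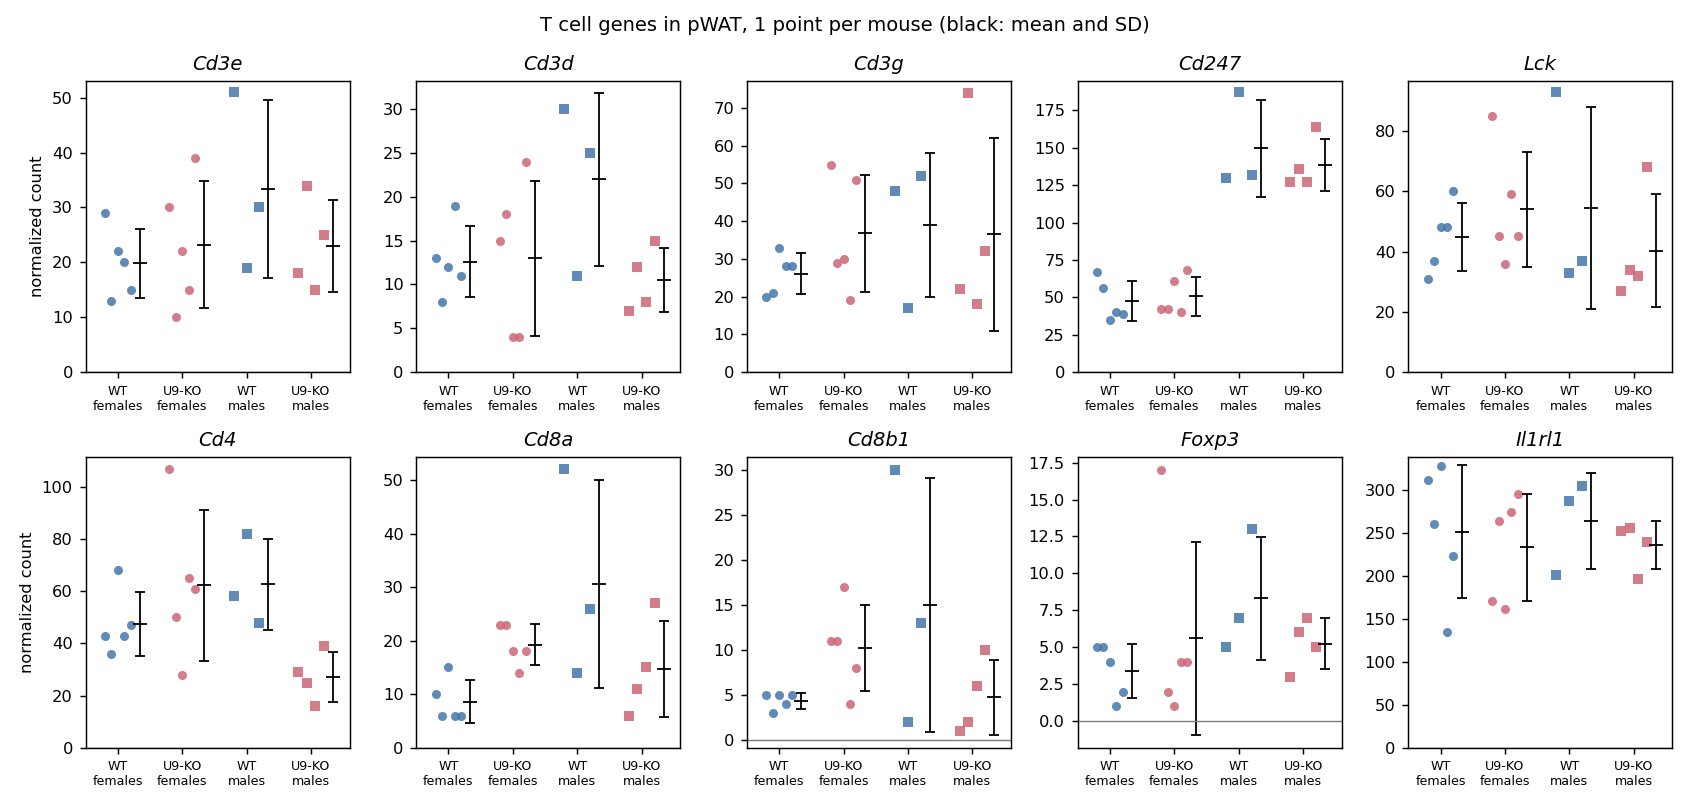
Normalized counts (vertical axes, each from its own scale) of the 10 T cell genes, with 1 point per mouse in 5 WT females, 5 U9-KO females, 3 WT males and 4 U9-KO males, and the mean and SD of each group in black. *Cd8a* runs from 6 to 15 in WT and 14 to 23 in U9-KO females, *Cd4* from 48 to 82 in WT and 16 to 39 in U9-KO males, and *Cd247* is 127 to 187 in males and 35 to 68 in females.

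The CD3 chains did not separate the genotypes in either sex. *Cd3e* (ENSMUSG00000032093, chromosome 9, 44998740 to 45009627, minus strand), the epsilon chain that every T cell receptor complex holds, had 29, 13, 22, 20 and 15 normalized counts in the WT females 1 to 5 and 30, 10, 22, 15 and 39 in U9-KO females 1 to 5. It had 51, 19 and 30 in WT males and 18, 34, 15 and 25 in U9-KO males. The genotypes overlapped in both sexes, with the lowest and the highest female both U9-KO and the highest male WT. The log2 fold change (U9-KO minus WT, on log2 of the normalized count + 1) was 0.13 in females (SE 0.38, 95% interval -0.70 to 0.96) and -0.47 in males (SE 0.39, -1.35 to 0.40). On this scale the change of genes with few counts is understated.

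*Cd3g* (ENSMUSG00000002033, chromosome 9, 44969572 to 44980431, minus strand), the gamma chain, had 20 to 33 normalized counts in the WT females and 55, 29, 30, 19 and 51 in U9-KO females. In males it had 48, 17 and 52 in WT and 22, 74, 18 and 32 in U9-KO mice. U9-KO male 2 was the highest of all 17 mice, and the genotypes overlapped in both sexes (log2 fold change 0.41, SE 0.31, in females and -0.16, SE 0.52, in males). *Cd3d* (ENSMUSG00000032094, chromosome 9, 44981786 to 44987339, plus strand), the delta chain, had 8 to 19 normalized counts in the WT females and 15, 18, 4, 4 and 24 in U9-KO females. In males it had 30, 11 and 25 in WT and 7, 12, 8 and 15 in U9-KO mice. Its male log2 fold change of -0.95 (SE 0.43) had an unadjusted p of 0.0526 and, over all genes, an adjusted p of 0.654 by limma, and WT male 2 lay among the U9-KO males.

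*Cd247* (ENSMUSG00000005763, chromosome 1, 165788681 to 165877277, plus strand) had 67, 56, 35, 40 and 39 normalized counts in the WT females and 42, 42, 61, 40 and 68 in U9-KO females. It had 130, 187 and 132 in WT males and 127, 136, 127 and 164 in U9-KO males. All 7 males lay above all 10 females, while within each sex the genotypes overlapped and the log2 fold changes were small, at 0.10 (SE 0.25) and -0.10 (SE 0.17). Exons of *Pou2f1* on the opposite strand cover 56.4% of the exonic bases of *Cd247*, and the files bear signs of counting without strand (60.3% shared with any gene), so its level is uncertain. Over the 10 females *Cd247* went with the summed count of 7 NK cell genes at r = 0.73 (permutation p = 0.00656, adjusted p = 0.129 over 36 relations) and rho = 0.856 (adjusted p = 0.0742), and over the 7 males at r = 0.26 (exact permutation p = 0.583). *Lck* (ENSMUSG00000000409, chromosome 4, 129548344 to 129573641, minus strand) had 31 to 60 normalized counts in the WT females and 85, 45, 36, 59 and 45 in U9-KO females. In males it had 93, 33 and 37 in WT and 27, 34, 32 and 68 in U9-KO mice, so that 1 male of each genotype stood above 60 and the others below 40.

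Among the 10 genes, log2 fold changes were farthest from 0 for *Cd8a* and *Cd8b1* in females and for *Cd8b1*, *Cd4* and *Cd8a* in males. *Cd8a* (ENSMUSG00000053977, chromosome 6, 71373427 to 71379173, plus strand), the alpha chain of CD8, had 10, 6, 15, 6 and 6 normalized counts in the WT females and 23, 23, 18, 14 and 18 in U9-KO females. WT female 3, at 15, was the only WT female above the lowest U9-KO female. The means were 8.60 ± 3.97 and 19.2 ± 3.83 (n = 5 each, SD), and the log2 fold change was 1.14 (SE 0.32, 95% interval 0.43 to 1.84). Limma gave an unadjusted p of 0.00442, rank 35 of 24825 genes, and an adjusted p of 1, so the difference did not pass the threshold of 0.05. In bulk tissue, fewer cells of a type and less RNA per cell cannot be told apart.

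*Cd8b1* (ENSMUSG00000053044, chromosome 6, 71322788 to 71337494, plus strand), the beta chain, had 5, 3, 5, 4 and 5 normalized counts in the WT females and 11, 11, 17, 4 and 8 in U9-KO females. Only U9-KO female 4 lay within the WT range. The log2 fold change was 0.95 (SE 0.38, unadjusted p = 0.0271 and adjusted p = 1 in limma's test). Counts of *Cd8b1* were low, and 3 of the 17 mice were at or under the worth of 3 reads, namely WT male 2 and U9-KO males 1 and 2. In males both CD8 chains had the opposite sign. *Cd8a* had 52, 14 and 26 normalized counts in WT and 6, 11, 15 and 27 in U9-KO males, and *Cd8b1* had 30, 2 and 13 in WT and 1, 2, 6 and 10 in U9-KO males. The highest in both was WT male 1, and WT male 2 lay inside the U9-KO range in both (log2 fold changes -0.997, SE 0.54, and -1.24, SE 0.84). Without WT male 1 these were -0.53 and -0.48, and without WT male 2 they were -1.44 and -2.17.

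*Cd4* (ENSMUSG00000023274, chromosome 6, 124864692 to 124888221, minus strand) had 58, 82 and 48 normalized counts in WT males and 29, 25, 16 and 39 in U9-KO males. Of the 10 genes it was the only member whose genotypes did not overlap in a sex, against 3.8% of the 21930 genes tested that were lower in every U9-KO male. The means were 62.7 ± 17.5 (SD, n = 3) and 27.3 ± 9.54 (SD, n = 4), the log2 fold change was -1.20 (SE 0.32, 95% interval -1.92 to -0.49), and limma gave an unadjusted p of 0.0039 and an adjusted p of 0.612. In females *Cd4* had 43, 36, 68, 43 and 47 normalized counts in WT and 107, 50, 28, 65 and 61 in U9-KO mice. U9-KO mice held both the lowest and the highest value, and the log2 fold change was 0.29 (SE 0.32), or 0.04 without the ovary-rich WT female 4 and U9-KO female 1.

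*Cd4* was set beside myeloid RNA, whose values also leaned lower in U9-KO males. The 8 macrophage genes (among them *Lyz2*, *Csf1r* and *Mrc1*) had log2 fold changes below 0 in all 8 cases, 0 of them with an adjusted p under 0.05 by limma. Their sum was 23546 to 38633 normalized counts in WT and 17216 to 22837 in U9-KO males, without overlap, as for 3.8% of all genes in this direction. The largest part of it was *Lyz2*, at 12198 to 20256 in WT and 8256 to 10923 in U9-KO males. *Lyz2*, *Csf1r* and *Itgam*, the last named because of its values, had an unadjusted p under 0.05 by limma. These were 3 of the 8 macrophage genes, against 4.09% of all genes lower in U9-KO males at that p. WT male 2, with the highest *Cd4* (82) and the highest macrophage sum, had only 19 *Cd3e* and 2 *Cd8b1* normalized counts. Over the 7 males, Pearson's r between log2 *Cd4* and the log2 macrophage sum was 0.88 (exact permutation p = 0.00714, adjusted p = 0.129) and Spearman's rho 0.857 (exact permutation p = 0.0238). None of the 36 relations had an adjusted p under 0.05. Pearson's r was 0.58 without the 2 males farthest from the median, and 0.72 within genotypes, and neither of these was tested. In the 10 females r was 0.16 (permutation p = 0.668), and it turned to -0.86 without the 2 females farthest from the median and was 0.45 without the ovary-rich libraries. The part of macrophages in the *Cd4* difference was not tested.

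*Foxp3* (ENSMUSG00000039521, chromosome X, 7573644 to 7595245, plus strand) was close to the limit of detection. It had 5, 5, 4, 1 and 2 normalized counts in the WT females, 17, 2, 1, 4 and 4 in U9-KO females, 5, 7 and 13 in WT males and 3, 6, 7 and 5 in U9-KO males. In 4 of 17 mice it was at or under the worth of 3 reads, and U9-KO female 1, an ovary-rich library, stood alone at 17. The log2 fold change was 0.26 (SE 0.59) in females, -0.46 without the ovary-rich libraries, and -0.53 (SE 0.46) in males. Its true level is also uncertain because 31.5% of its exonic bases are shared with *Flicr*, *Ccdc22*, *Ppp1r3f* and *Gm36995*, and shared reads were dropped in counting.

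*Il1rl1* (ENSMUSG00000026069, chromosome 1, 40429570 to 40465415, plus strand) was the most abundant of the 10 genes in normalized counts. It had 312, 261, 328, 135 and 223 normalized counts in the WT females and 171, 264, 162, 275 and 295 in U9-KO females. It had 201, 287 and 305 in WT males and 252, 256, 196 and 240 in U9-KO males. The genotypes overlapped in both sexes, with log2 fold changes of -0.09 (SE 0.26, 95% interval -0.65 to 0.48) in females and -0.15 (SE 0.16, -0.51 to 0.21) in males.

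The *Il1rl1* values were set beside mast cell RNA, the fat regulatory T cell list and *Cd3e*. Female mice with the least *Il1rl1* (135, 162 and 171 normalized counts) were also the 3 with the smallest sum of 8 mast cell genes such as *Cpa3*, *Tpsb2* and *Cma1* (1752, 1033 and 2025, against 2235 to 2926 in the other females). Over the 10 females r was 0.74 (permutation p = 0.0186, adjusted p = 0.175 over 36 relations) and rho was 0.745 (permutation p = 0.0175). Without the 2 farthest mice r was 0.69. The mice at 135 and 171 are the ovary-rich libraries, and without both r was 0.87. Over the 7 males r was 0.47 (exact permutation p = 0.336) and rho 0.821 (p = 0.0341), and with *Cd3e* r was -0.02 in females and -0.07 in males (permutation p = 0.949 and, exact, 0.871). With the summed count of the other regulatory T cell genes of fat (18 genes, no member of the 10 among them) r was 0.57 in females (permutation p = 0.0811, 0.35 without the ovary-rich libraries) and 0.74 in males (exact permutation p = 0.0429, adjusted p = 0.257, 0.49 without the 2 farthest mice). That sum was mostly *Ccr2*, *Capg* and *Il10ra*, with means of 993, 860 and 320 normalized counts over all mice. *Ctla4*, *Tigit* and *Ccr8* averaged 7.65, 6.12 and 3.18, so r says little about genes at that level. The mast cell sum was 1752 to 2926 in WT females, 1033 to 2600 in U9-KO females, 2267 to 3071 in WT males and 1491 to 2576 in U9-KO males. All 8 mast cell genes were detected in every mouse, and the part of mast cells in the *Il1rl1* level was not tested.

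**Figure D2:**
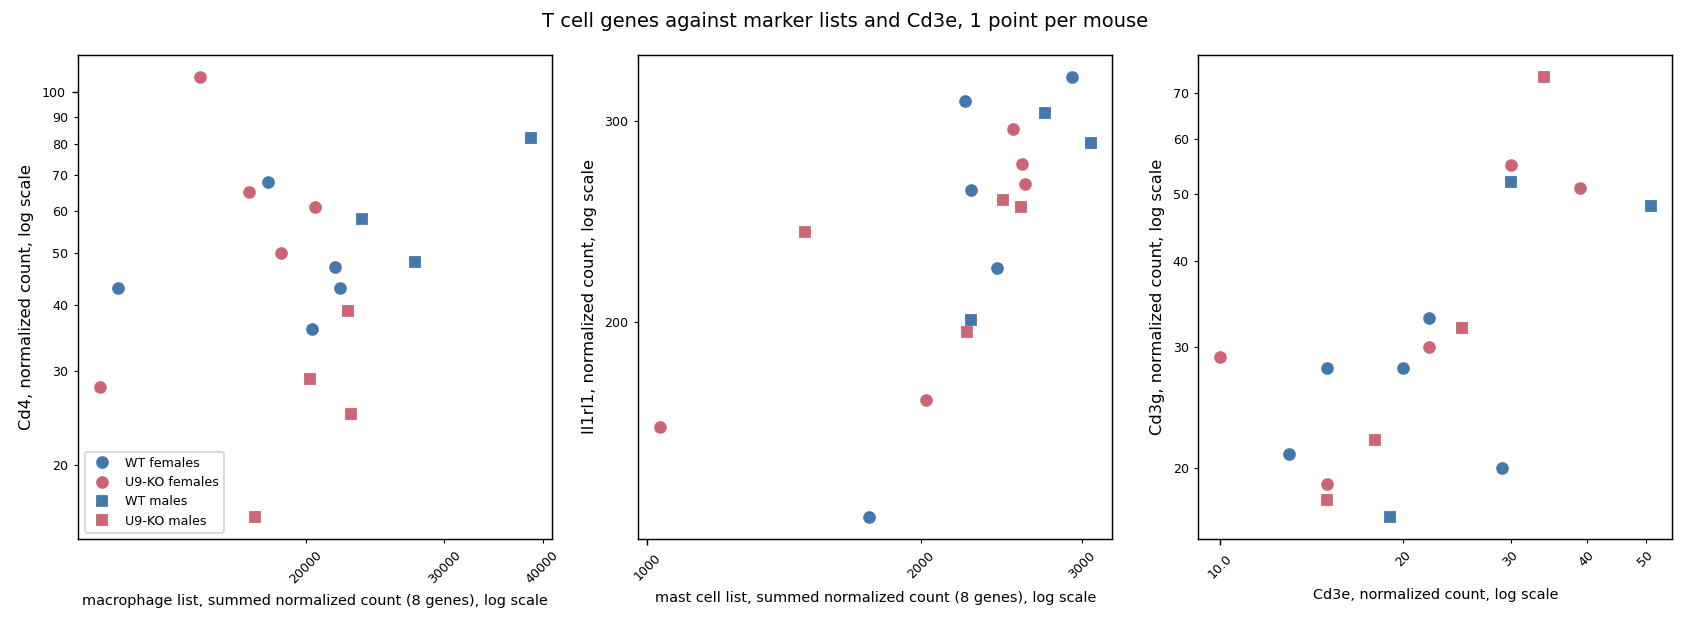
*Cd4* against the summed normalized count of 8 macrophage genes, *Il1rl1* against that of 8 mast cell genes and *Cd3g* against *Cd3e*, with 1 point per mouse, circles for females, squares for males, blue for WT and red for U9-KO, and log scales on every axis. The 3 WT males lie above the 4 U9-KO males in *Cd4* and to their right in macrophage sum, and the 3 females lowest in *Il1rl1* (135 to 171) have the lowest female mast cell sums (1033 to 2025).

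The balance between the genes was compared as a log2 ratio within each mouse, with 1 added to each normalized count. *Cd4* to *Cd8a* was 2.00, 2.40, 2.11, 2.65 and 2.78 in the WT females and 2.17, 1.09, 0.61, 2.14 and 1.71 in U9-KO females. In linear terms that was 4.30 to 7.83 *Cd4* per *Cd8a* in WT and 1.56 to 4.65 in U9-KO females, with 3 of 5 U9-KO females below every WT female. The means were 2.39 ± 0.34 and 1.54 ± 0.68 (n = 5 each, SD), a difference of -0.85 (two-sided exact permutation p = 0.0476, adjusted p = 0.381 over 8 ratios). The *Cd4* to *Cd8a* ratio in males was 0.16, 2.47 and 0.86 in WT and 2.10, 1.12, 0.09 and 0.52 in U9-KO mice, which overlapped across nearly their whole range (difference -0.21, exact permutation p = 0.743). With 3 males against 4 the smallest p this test allows is 0.0571.

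The regulatory ratios did not separate the genotypes. *Foxp3* to *Cd3e* was -2.31 ± 0.77 in WT and -2.17 ± 1.09 in U9-KO females (n = 5 each, SD; difference 0.14, exact permutation p = 0.849), and -1.86 ± 1.09 in WT (n = 3) and -1.92 ± 0.62 in U9-KO males (n = 4; difference -0.06, exact permutation p = 1). *Foxp3* to *Cd4* differed by -0.03 in females (exact permutation p = 0.944). In males it was -3.30, -3.38 and -1.81 in WT and -2.91, -1.89, -1.09 and -2.74 in U9-KO mice, a difference of 0.67, with log2 fold changes of -1.20 for *Cd4* and -0.53 for *Foxp3* (exact permutation p = 0.343). *Il1rl1* to *Foxp3* differed by -0.35 in females and 0.39 in males (exact permutation p = 0.841 and 0.286). In linear terms U9-KO female 1 stood at 10.1 *Il1rl1* per *Foxp3* and the other 9 females between 52.2 and 162.0, and the female difference turned to 0.27 without the ovary-rich libraries.

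**Figure D3:**
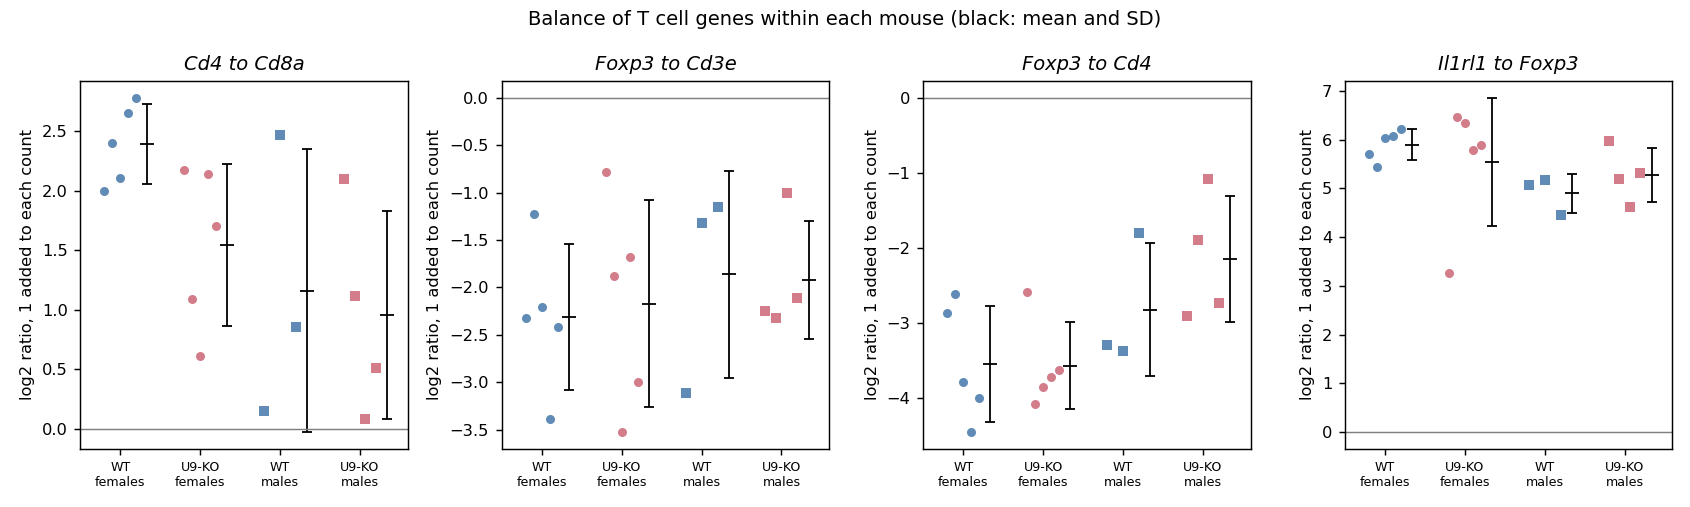
Log2 ratios of *Cd4* to *Cd8a*, *Foxp3* to *Cd3e*, *Foxp3* to *Cd4* and *Il1rl1* to *Foxp3* (vertical axes, 1 added to each normalized count), with 1 point per mouse in the 4 groups and the mean and SD in black. In *Cd4* to *Cd8a*, WT females lie between 2.00 and 2.78 and U9-KO females between 0.61 and 2.17.

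In females, 0 of the 10 genes and 0% of the 24825 genes tested passed limma's test at an adjusted p of 0.05. Log2 fold changes above 0 were found for 8 of the 10, against 49.9% of all genes, with a median of 0.25 against 0. *Cd8a* and *Cd8b1* (2 of 10) had an unadjusted p under 0.05 and were higher in U9-KO mice, as were 1.24% of all genes. Genotypes that did not overlap, with U9-KO higher, were found for 0 of the 10 and 0.169% of all genes. Limma with voom weights on rebuilt reads also called 0 genes, with 471 at an unadjusted p under 0.05 against 553 (2.23%) in the fit above. Without the ovary-rich libraries 7 of the 10 were above 0, their median was 0.07 and *Cd8b1* had an unadjusted p of 0.0808.

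Other genes of the T cell pathway gave few differences in females. Of 26 genes of the T cell receptor complex and its signalling that were tested (the 5 above included), 20 were higher and 6 lower in U9-KO females, with a median log2 fold change of 0.16. *Lef1* (lower) and *Sh2d1a* (higher) had an unadjusted p under 0.05, and both are named here because of their values. All 11 tested genes of the CD8 and cytotoxic list, *Cd8a* and *Cd8b1* included, lay above 0 (median 0.37). The chemokine gene *Ccl5* was at 0.26 (41 to 64 normalized counts in WT and 48 to 80 in U9-KO females), the receptor gene *Klrk1* at 0.24 and *Cxcr3* at 0.38. *Eomes*, a transcription factor of cytotoxic lymphocytes named because of its values, had 2 to 7 normalized counts in WT and 5 to 17 in U9-KO females (unadjusted p under 0.05, adjusted p = 1 in limma's test). Of 20 genes of the fat regulatory T cell list, *Foxp3* and *Il1rl1* included, 11 were higher and 9 lower (median 0.05). *Gpr83*, named because of its values, was lower at -1.86 (unadjusted p = 0.0145 by limma). It had 0, 5, 14, 3 and 6 normalized counts in the WT females and 1, 0, 0, 0 and 1 in U9-KO females. NK cell markers, which share cytotoxic genes with CD8 T cells, were higher in 6 of 7 cases (median 0.26), and their summed normalized count was 60 to 127 in WT and 87 to 120 in U9-KO females. Across the females *Cd8a* went with that sum at r = 0.49 (permutation p = 0.161, adjusted p = 0.446), and at -0.28 without the 2 mice farthest from the median. The part of NK cells in the values of the CD8 and cytotoxic list was not tested.

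In males, 0 of the 10 genes and 0% of the 21930 genes tested passed limma's test at an adjusted p of 0.05, where the lowest adjusted p of any gene was 0.612. All 10 log2 fold changes were below 0, against 49.9% of all genes, with a median of -0.50 against 0.00. *Cd4* (1 of 10) had an unadjusted p under 0.05 and was lower, as were 4.09% of all genes. Limma with voom weights called 0 genes as well, with 1720 at an unadjusted p under 0.05 against 1667 (7.6%) in the fit above. The 10 values are not independent evidence, because they came from the same 7 mice and WT male 1 was the highest in *Cd3e*, *Cd3d*, *Cd8a*, *Cd8b1* and *Lck*. Without WT male 1, 8 of the 10 were below 0, with a median of -0.41, and the genes called among all rose from 0 to 71, none of them a member of the 10.

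The wider T cell lists leaned the same way in males, but they come from the same mice and include members of the 10. *Cd3e*, *Cd3d*, *Cd3g*, *Cd247* and *Lck* are in the receptor list, and *Cd8a* and *Cd8b1* in the CD8 list. *Cd4* is in the helper list, and *Foxp3* and *Il1rl1* are in the regulatory list. Of the 26 T cell receptor genes, 24 were lower and 2 higher in U9-KO males (median -0.43), and none had an unadjusted p under 0.05. The beta chain constant genes *Trbc1* and *Trbc2* had 25 to 81 and 28 to 70 normalized counts in WT and 29 to 60 and 20 to 50 in U9-KO males. Of 13 CD8 and cytotoxic genes, 12 were lower (median -0.76), *Cxcr3* and *Gzmb* with an unadjusted p under 0.05. The granzyme gene *Gzmb*, named because of its values, had 41, 30 and 46 normalized counts in WT and 9, 17, 16 and 19 in U9-KO males. Its genotypes did not overlap, as for 3.8% of all genes in this direction. In the same list *Prf1* stood at -0.095, *Gzma* at -0.13 and *Eomes*, the 1 gene that was higher, at 0.52. Of 18 fat regulatory T cell genes, 14 were lower (median -0.34), and *Il10ra* and *Icos* had an unadjusted p under 0.05. In the helper list 6 of 10 were lower, *Cd4*, *Cxcr5* and *Cd40lg* with an unadjusted p under 0.05, while the most abundant, *Bcl6*, stood at 0.01. *Icos* and *Cd40lg* are named because of their values.

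Markers of other cell types were counted in males as well. Dendritic cell genes were lower in 7 of 7 cases (median -0.26) and mast cell genes in 7 of 8 (median -0.37), while NK cell genes were split into 4 lower and 3 higher (median -0.13) and adipocyte genes had a median of 0.05. Lower with an unadjusted p under 0.05 by limma were 1 of 7 dendritic, 2 of 8 mast and 0 of 7 NK cell genes. Of all genes, 4.09% were. The macrophage sum was 11541 to 22102 in WT and 10927 to 20525 in U9-KO females, with all 8 genes below 0 there too (median -0.17), and the part of these cells in the T cell values was not tested.

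**Figure D4:**
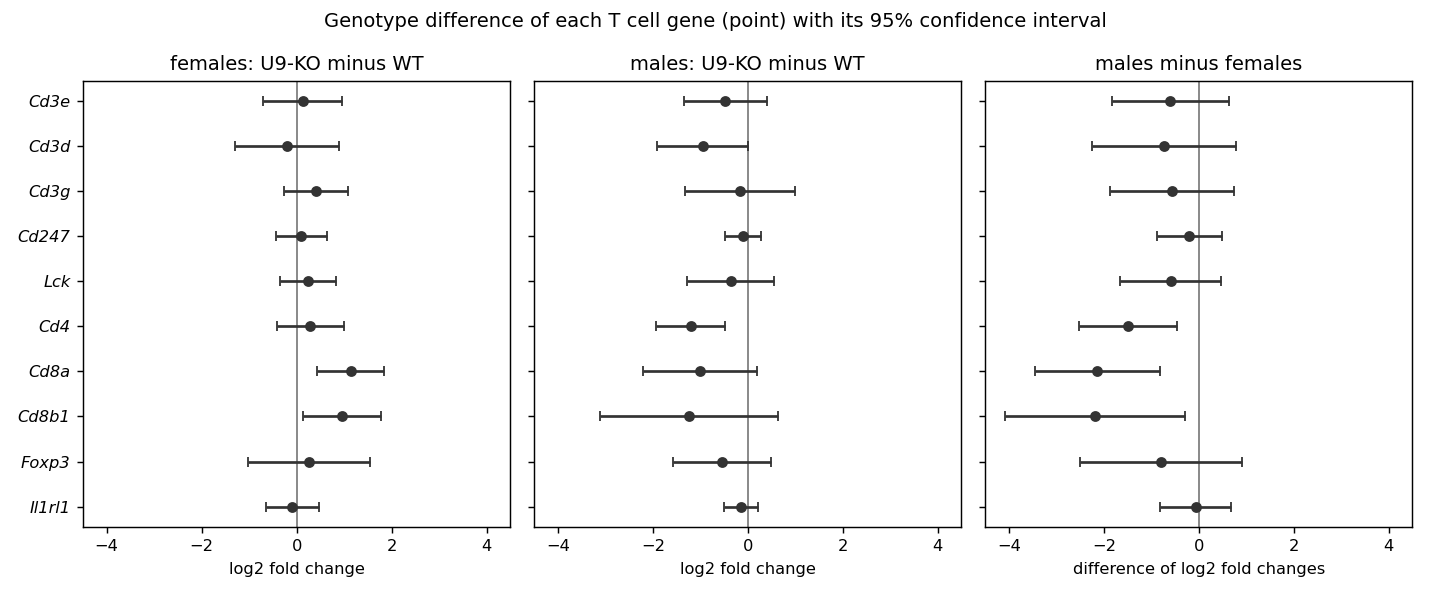
Log2 fold changes (horizontal axes) of the 10 T cell genes in females and in males, and the male minus the female value, each as a point with its 95% confidence interval from limma. In females *Cd8a* and *Cd8b1* have intervals above 0, in males *Cd4* has one below 0, and in the difference between the sexes *Cd4*, *Cd8a* and *Cd8b1* lie below 0 with unadjusted intervals.

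Whether the genotype difference itself differed between the sexes was tested as an interaction over all 17 mice. For all 10 genes the male log2 fold change was below the female one, against 50.3% of all genes, with a median difference of -0.67 against 0.00. In limma's fit *Cd8a* differed by -2.14 (SE 0.63, unadjusted p = 0.00331, adjusted p = 1), *Cd8b1* by -2.19 (SE 0.90, unadjusted p = 0.0258) and *Cd4* by -1.50 (SE 0.49, unadjusted p = 0.00678). These were 3 of 10 genes with an unadjusted p under 0.05 and a lower fold change in males than in females, against 1.97% of all 26289 genes. *Cd8a* and *Cd8b1* varied together (r = 0.84 after group means were subtracted), so the 3 are not independent. An adjusted p under 0.05 was found for 0 of the 10 and 0% of all genes. For *Il1rl1* the difference was -0.06 (SE 0.36), with a 95% interval from -0.81 to 0.69.

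Some of the 10 genes varied together from mouse to mouse and others did not. After each group mean was subtracted, the pair most alike over the 17 mice was *Cd8a* and *Cd8b1* (r = 0.84), and the least alike was *Cd247* and *Lck* (r = -0.41). *Cd3g* was the member most like *Cd3e* over the 17 mice (r = 0.71), at rank 11 of 17520 genes averaging 10 or more normalized counts. *Cd3d* followed at r = 0.48, *Cd8a* at 0.42, *Lck* at 0.32, *Cd247* at 0.24, *Cd4* at 0.21 and *Il1rl1* at -0.07, while *Foxp3* and *Cd8b1* were too low to rank. Among the 10 genes most like *Cd3e* was *Cxcr6*, a chemokine receptor of tissue lymphocytes (r = 0.78), and the others were *6430511E19Rik* (0.82), *Gm15753*, *Gm6210*, *Lsm7*, *C730034F03Rik*, *D630033A02Rik*, *Ccnb2-ps*, *Apba3* and *Snord104* (0.71). These values share library depth and the counting error of a gene with 10 to 51 counts. The 10 were also picked as the highest of 17520, so a high r among them is partly due to that choice. In the 7 males, *Cd3e* went with *Cd3d* at r = 0.85 (exact permutation p = 0.0194, rho 0.857, 0.70 without the 2 farthest mice) and with *Cd3g* at r = 0.84 (exact permutation p = 0.0258, rho 0.786). In the 10 females r was 0.32 (permutation p = 0.373, rho 0.355) and 0.58 (permutation p = 0.0778, rho 0.547), and the latter fell to 0.01 without the 2 farthest mice. The smallest adjusted p among these was 0.175.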

How the data were processed

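Stranded paired-end libraries were sequenced from the pWAT of 17 mice. The authors used trim_galore for trimming, STAR for alignment, summarizeOverlaps (Union mode, which drops reads that touch more than 1 gene) for counting and DESeq2 for testing. The submitters' processing notes name STAR 2.7.3a, DESeq2 1.28.1 and GRCm38, and the annotation is not given in the sources used here. What was deposited is a score, that is, counts that the authors scaled by size factors and rounded, so no count model was used. A series table repeats these values and was not used. For 2 male libraries the column header and the label give different replicate numbers, and the label was followed.

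Identifiers were named and placed with GENCODE M21 (55141 of 55401 named). Of 35 protein-coding genes whose exons are wholly covered on the opposite strand, 24 (68.6%) were 0 in every library, against 17.1% of 15355 genes with no shared exon, so that strand appeared to be ignored in counting. Levels per kb therefore use the exonic length shared with no gene on either strand.

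Limma 3.58.1 in R 4.3.3 (lmFit, then eBayes with a mean-variance trend) was run on log2(normalized count + 1) of genes whose normalized counts summed to 10 or more in the mice fitted, with Benjamini-Hochberg adjustment over all genes and a threshold of 0.05. It was run in females, in males, and over all 17 mice for the interaction of sex and genotype, and was tested on simulated data. Ratios and correlations were compared with two-sided permutation tests in Python 3.11.15 with numpy 2.4.6, pandas 2.3.3 and scipy 1.17.1, exact except for correlations in females, which drew 100000 permutations. Correlated pairs were chosen after their values were seen. Nothing says whether mice of a group shared a cage or a litter. The 29 pairs of libraries of a group each differed in at least 24469 genes.

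The alternatives were other filters, pseudocounts, scalings and T cell measures, no trend, all mice in 1 fit, the replicate number as a block and each mouse left out. Fits and correlations without the ovary-rich libraries, voom weights on rebuilt reads and levels over same-strand length were added after seeing the data. Replicate numbers did not pair the mice. The 10 genes and the marker lists were chosen with earlier results of these data known. Named genes were the 10, *U90926*, the most abundant genes of a list, and the 10 genes most like *Cd3e*, and others are said to be named for their values. RefSeq windows gave the sequences. A marker list of another leukocyte type is not reported here.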

Additional observations from a re-analysis of the deposited data

Results flagged for a closer look

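In 4 of the 42 groups of values examined (each gene or ratio in each group of 4 or 5 mice), 1 mouse stood far from the others by Dixon's criterion at 95%, where chance gives about 2.1. *Foxp3* was at 17 normalized counts in U9-KO female 1 and at 1 to 4 in the other 4 U9-KO females. The same mouse was the ovary-rich library, and it held 107 *Cd4*, 85 *Lck*, 55 *Tigit*, 16 *Sh2d1a* and 12 *Il21* normalized counts, where the other U9-KO females had at most 65, 59, 3, 5 and 0. Its log2 ratio of *Il1rl1* to *Foxp3* was 3.26, while its group mates lay between 5.79 and 6.46. The part of ovary or lymphoid tissue in this library was not tested.

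*Lck* was at 68 normalized counts in U9-KO male 4 and at 27 to 34 in the other 3 U9-KO males. That mouse also had the highest *Cd8a* (27) and *Cd8b1* (10) of its group, but not the highest *Cd3e* (25, against 34 in U9-KO male 2). The log2 ratio of *Foxp3* to *Cd3e* was -1.0 in U9-KO male 3 and between -2.32 and -2.12 in the other 3 U9-KO males, on 7 *Foxp3* and 15 *Cd3e* normalized counts.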

How the results depend on the processing

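No member of the 10 had an adjusted p under 0.05 under any alternative run. The number of genes called stayed at 0 except without the mean-variance trend (1 in females, 1 in males), without a filter in the interaction of sex and genotype (1), and without WT male 1, where 71 genes were called in males (0 to 71 with each male left out in turn). *Cd8a* in females stayed between 1.05 and 1.34 and *Cd4* in males between -1.39 and -0.98 when each mouse was left out. Leaving out the ovary-rich libraries turned *Foxp3* in females to -0.46 (adjusted p = 1 in limma's test), the female ratio of *Foxp3* to *Cd3e* to -0.48 and that of *Il1rl1* to *Foxp3* to 0.27, and left *Cd4* to *Cd8a* at -0.94 with an exact permutation p of 0.0857. The cause was not tested.

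With each mouse left out in turn, *Cd4* to *Cd8a* in females ranged from -1.003 to -0.61, and its exact permutation p was 0.0952 in 6 of the 10 fits, with fewer mice in each. Of the other 7 ratios, *Foxp3* to *Cd4* (0.31 to 1.18) and *Il1rl1* to *Foxp3* (0.15 to 0.61) in males kept their sign and 5 crossed 0. *Cd4* to *Cd8a* in males ranged from -0.71 to 0.45, *Foxp3* to *Cd3e* from -0.21 to 0.48 in females and -0.69 to 0.30 in males, *Foxp3* to *Cd4* in females from -0.28 to 0.20 and *Il1rl1* to *Foxp3* in females from -0.58 to 0.22. Log2 fold changes that crossed 0 in females were *Cd3e* (-0.092 to 0.37), *Cd3d* (-0.49 to 0.087), *Foxp3* (-0.21 to 0.58), *Il1rl1* (-0.29 to 0.033) and *Cd247* (-0.013 to 0.23). In males they were *Cd3g* (-0.66 to 0.12), *Cd247* (-0.19 to 0.072) and *Lck* (-0.64 to 0.10), and in the interaction *Il1rl1* (-0.25 to 0.15). Of the 10, between 6 and 10 lay above 0 in females and between 8 and 10 below 0 in males.

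Mice with the same replicate number did not deviate together (correlations of -0.445 to 0.11), so the numbers name mice and pair none. With the replicate number as a block, 0 genes were called in either sex, with 456 at an unadjusted p under 0.05 in females and 1393 in males, *Cd4* to *Cd8a* in females stayed at -0.85 with an exact permutation p of 0.125, and *Foxp3* to *Cd3e* in males turned to 0.0048.

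Counts of 1 to 17 for *Foxp3* and 1 to 30 for *Cd8b1* limit these genes most, since 3 reads are worth 2.44 to 3.96 normalized counts. A filter of at least 10 in every mouse leaves 6 of the 10 genes to test.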

Other observations

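*Trac*, the constant gene of the T cell receptor alpha chain (ENSMUSG00000076928, chromosome 14, 54220521 to 54224206, plus strand), was out of step with the other chains. It had 387, 81, 245, 148 and 244 normalized counts in WT females and 116, 263, 131, 428 and 105 in U9-KO females, against 66, 15 and 50 in WT males and 7, 26, 15 and 30 in U9-KO males. All 10 females lay above all 7 males, whereas *Trbc1* and *Trbc2*, the beta chain genes, overlapped between the sexes. The females with the most *Trac* (428 and 387) had 15 and 29 *Cd3e* normalized counts, and U9-KO female 5, with the most *Cd3e* (39), had 105 *Trac*. *Tcf7*, a T cell transcription factor gene, was highest in the ovary-rich libraries, at 502 in WT female 4 and 529 in U9-KO female 1, and was at most 255 in the other females and 85 in males.

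*Ptprcap*, whose protein binds the leukocyte phosphatase CD45, was listed at 0 in all 17 libraries. Its exons are wholly shared with *Rps6kb2* on the opposite strand and *Coro1b*, so that this 0 says nothing of its RNA. Means of the gamma delta T cell genes over all mice ran from 0.47 normalized counts (*Il17a*) to 625 (*Sox13*). *Trdc*, the delta chain constant gene, had 17 to 24 normalized counts in WT females, 10 to 25 in U9-KO females and 19 to 29 in WT males. In U9-KO males *Trdc* had 14, 66, 20 and 17, and the highest, U9-KO male 2, also had the most *Cd163l1* (280), *Tcrg-C1* (46), *Il23r* (17) and *Cd3g* (74) of the 17 mice. *Trac*, *Tcf7* and these genes are named because of their values.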
